A study of Drosophila melanogaster with 4 samples.

Results

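Isolated H3K36me3 regions are stretches of marked chromatin with no marked neighbour nearby. A region was counted as isolated when at least 20000 bases separated it from the previous and from the next region of the series-level list on the same chromosome arm. The first and last region of each arm were left out, as were heterochromatin scaffolds and unplaced sequence. The rule found 314 isolated regions among the 4178 regions of the 6 arms 2L, 2R, 3L, 3R, 4 and X, and among 4468 regions in the whole list. The remaining 3864 arm regions are called the other regions. Members were chosen by their measured positions in the series-level list, so the gaps of the isolated regions, and with them their number, are its result and not a finding.

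The study mapped H3K36me3 by chromatin immunoprecipitation and sequencing (ChIP-seq) in Drosophila melanogaster embryos. All libraries came from whole embryos of the wild-type strain Oregon-R-modENCODE at 14 to 16 h, a late stage when tissues are differentiating, with no mutation or treatment in any group. The groups were H3K36me3 ChIP with 2 libraries and input with 2 libraries, and an enriched-region list was used for each ChIP library and for the series as a whole. Whether replicates 1 and 2 were collected from separate embryos is not stated, and differences between them may therefore be technical. A whole-embryo sample mixes all cell types, so a region marked in few cells and a region marked weakly in many cells cannot be told apart.

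H3K36me3 is trimethylation of lysine 36 on histone H3. The methyltransferase Set2 travels with elongating RNA polymerase II and leaves the mark over the bodies of transcribed genes, more towards their 3' ends. Fly genes are closely packed in many places, and marked gene bodies there often lie next to one another. A marked region far from any other is thus a place where the mark was listed alone, in a long stretch without another region. The lists cannot tell weak enrichment from none in such a stretch. No genome or gene annotation of the files' build, FlyBase release 5, was used here, so regions are given by position, without gene names or sequence.

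The surroundings were empty in both replicates as well. No isolated region had another replicate 1 or replicate 2 region within 20000 bases of either edge (314 of 314 in each replicate, 95% Wilson interval from 98.8 to 100%). Of the regions isolated by the same rule in a replicate's own list, 1 of 314 in replicate 1 and 0 of 284 in replicate 2 overlapped no series-level region. If other replicate regions are alike in this, the check is close to a consequence of the rule. Replicate regions that overlapped an isolated region reached past its edges in 99 cases in replicate 1 and 34 cases in replicate 2, by at most 266 and 415 bases.

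Farther out, marked sequence returned. Between 20 and 50 kb from their edges, 14.1% of bases lay in replicate 1 regions and 13.1% in replicate 2 regions. Around the other regions the cover at the same distances was 26.6% for replicate 1 and 24.7% for replicate 2. Between 100 and 200 kb the cover was 18.5% and 17.1% around isolated regions, against 20.2% and 18.8% around the other regions, in replicates 1 and 2. Over the arms as a whole the cover was 19.2% for replicate 1 and 17.8% for replicate 2. Marked sequence was thus nearly as frequent around isolated regions at 100 to 200 kb as over the arms.

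**Figure D1:**
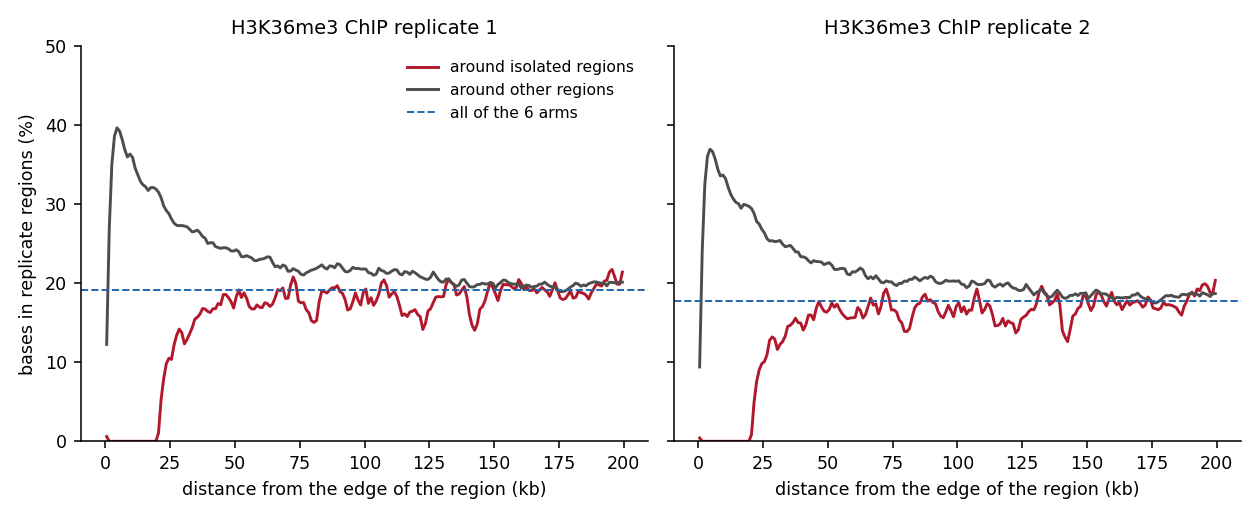
Percent of bases covered by regions of replicate 1 (left) and replicate 2 (right) against the distance from the edge of a region in kb, in bins of 1000 bases on both sides, for isolated regions (red), other regions (grey) and all of the 6 arms (dashed). The red line is close to 0 up to 20 kb, where the rule allows no series-level region, so this is close to a consequence of it. Between 100 and 200 kb the red line averages 18.5% in replicate 1 and 17.1% in replicate 2.

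The spacing around single members varied widely. The smaller of a member's gaps had a median of 34098 bases and reached 193435 bases. The larger of the gaps had a median of 82441 bases and reached 448625 bases. Both gaps were at least 40000 bases at 120 members and at least 100000 bases at 20 members. At 127 members (40.4%, Wilson interval 35.2 to 46.0) at least 1 of the gaps was 100000 bases or more. The other regions included 351 of 3864 (9.08%, interval 8.22 to 10.0) with such a gap on 1 side.

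Chaining regions less than 20000 bases apart gave 1072 groups of regions, leaving out the groups at arm ends. The isolated regions made up 314 of these groups (29.3%), so groups of 1 region were common. They nonetheless held 7.52% of arm regions and 6.83% of the bases in arm regions. Some isolated regions followed one another along an arm. Of the 314, 148 stood between neighbours that were not isolated, and 86 formed 43 runs of 2. The longest run had 7 isolated regions on 3L from 23708246 to 24416232, near the centromere side of that arm. These 7 regions covered 3.85% of the 707987 bases they spanned, and 4 of them were overlapped in both replicates.

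Isolated regions were spread along every large arm and absent from chromosome 4. By arm, 58 of 710 regions were isolated on 2L (8.17%, Wilson interval 6.37 to 10.4), 50 of 844 on 2R (5.92%, 4.52 to 7.73), 77 of 800 on 3L (9.63%, 7.77 to 11.9), 78 of 955 on 3R (8.17%, 6.59 to 10.1) and 51 of 788 on X (6.47%, 4.96 to 8.41). Per Mb of arm there were between 2.27 isolated regions on X and 3.14 on 3L. The intervals overlapped for each pair of these 5 arms except 3L and 2R. On chromosome 4, the small dot chromosome, 0 of 81 regions were isolated. That chromosome held 59.9 regions per Mb, against 30.9 to 39.9 per Mb on the large arms.

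The same rule on each replicate's own list gave a similar total number. It found 314 isolated regions among 4068 arm regions in replicate 1 and 284 among 4197 in replicate 2, or 7.24% ± 0.673 (SD, n = 2). On 3R it found 82 in each replicate, on 3L it found 72 and 60, on 2L 58 and 50, on 2R 54 and 50 and on X 47 and 42, in replicates 1 and 2. Replicate 1 had 1 isolated region on chromosome 4, 1319 bases wide, and replicate 2 had 0. By count, both replicates had the most on 3R and, among the large arms, the fewest on X. By share of regions, 3L was highest in replicate 1 (9.24%) and 3R in replicate 2 (8.58%). The intervals of 3L and 2R, apart in the series-level list, overlapped in both replicates. They were 7.40 to 11.5 and 5.13 to 8.58 in replicate 1, and 5.76 to 9.36 and 4.59 to 7.84 in replicate 2.

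Members matched by 1 region in a replicate were always isolated there too, which follows from the empty surroundings. In replicate 1, 282 of the 314 members overlapped a region that was itself isolated in that list, and in replicate 2 it was 222 of 314 (mean 80.3% ± 13.5, SD, n = 2). The rest were members with no replicate region, 29 in replicate 1 and 62 in replicate 2, or members split into several replicate regions, 3 in replicate 1 and 30 in replicate 2. Of the regions isolated in a replicate, 31 of 314 in replicate 1 and 62 of 284 in replicate 2 matched a series-level region that was not isolated, and 1 in replicate 1 matched no series-level region. In all, 215 members (68.5%, Wilson interval 63.1 to 73.4) were isolated in both replicates. The shares of members isolated in a replicate thus restate overlap and splitting, and are not separate support for isolation.

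Isolated regions tended to be narrower than the others. Their median width was 4051 bases, with a middle 50% from 2509 to 6751 bases, and the full range ran from 1001 to 27987 bases. The other regions had a median of 4719 bases and a middle 50% from 3129 to 7326 bases. The difference lay mostly at the narrow end. Of the isolated regions 49 (15.6%, Wilson interval 12.0 to 20.0) were under 2000 bases, against 337 other regions (8.72%, interval 7.87 to 9.65). At 10000 bases or more there were 33 isolated regions (10.5%, interval 7.58 to 14.4), against 469 other regions (12.1%, interval 11.1 to 13.2), and these intervals overlapped.

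The order was the same within each replicate's own list. Regions isolated in replicate 1 had a median width of 4016 bases, against 4669 for the rest of that list. Regions isolated in replicate 2 had a median of 3859.5 bases, against 4283 for the rest. Of the isolated regions, 282 of 314 in replicate 1 and 222 of 284 in replicate 2 overlapped an isolated series-level region. The order in the replicate lists is thus mostly measured again at the same places. Over both replicates the medians were 3938 ± 111 bases for isolated regions and 4476 ± 273 bases for the rest (SD, n = 2 each). These SDs describe each group on its own, while the comparison is within a replicate, where isolated regions were narrower in both. With 2 replicates on each side an exact unpaired permutation test cannot give a two-sided p below 0.333. Pairing within replicates leaves fewer arrangements still, so no test over replicates was made for any comparison. Regions of 1 list are not replicates, and Wilson intervals on shares of regions treat regions as independent and cover counting error only.

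**Figure D2:**
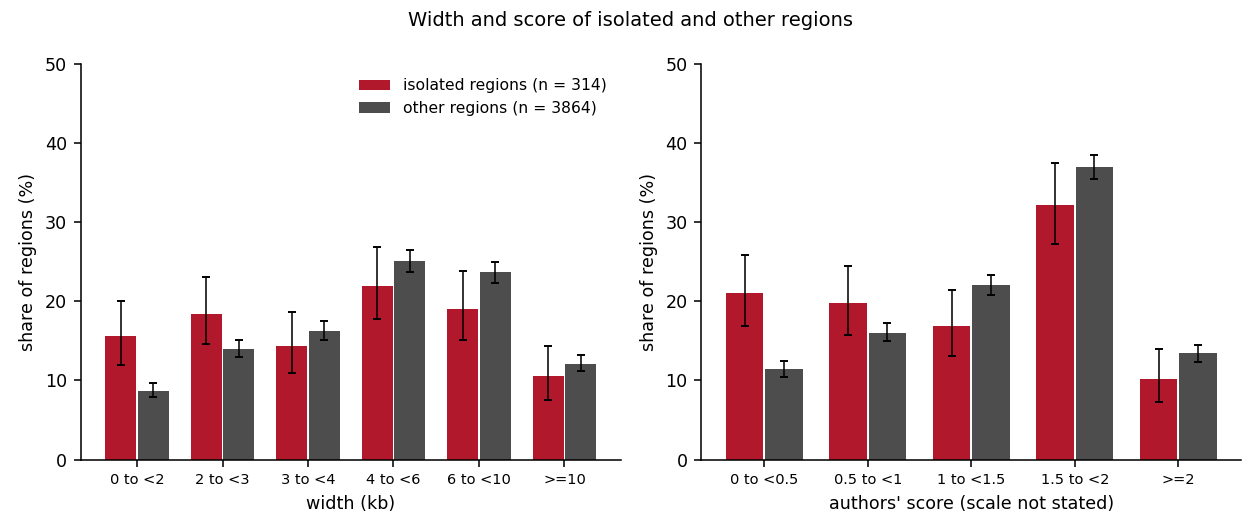
Share of isolated regions (red, n = 314) and other regions (grey, n = 3864) in classes of width in kb (left) and of the authors' score (right), with 95% Wilson intervals. Isolated regions are more frequent in the lowest class of each panel, at 15.6% against 8.72% for width and 21.0% against 11.4% for score.

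The authors' score, whose scale is not stated, is used to rank regions within a list. It showed the same lean to the low end. Isolated regions had a median score of 1.34, against 1.51 for the other regions. Their scores fell below 0.5 in 66 cases (21.0%, Wilson interval 16.9 to 25.9), against 441 of the other regions (11.4%, interval 10.4 to 12.5). Among the highest-scored 10% of the series-level list were 26 isolated regions (8.28%, interval 5.71 to 11.9) and 388 other regions (10.0%, interval 9.13 to 11.03), so high scores occurred at similar shares. Wide members also scored high (Spearman rho = 0.79 over 314 isolated regions, and 0.72 over the other regions). Width and score come from the same reads of the same regions, so they do not count as separate results.

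A smaller share of isolated regions had replicate support. Both replicates overlapped 246 of the 314 by at least 1 base (78.3%, Wilson interval 73.5 to 82.5), where all arm regions together stood at 88.8% and the other regions at 89.7% (3465 of 3864, interval 88.7 to 90.6). Neither replicate overlapped 23 isolated regions (7.32%, interval 4.93 to 10.8), where all arm regions stood at 4.33% and the other regions at 4.09% (158 of 3864, interval 3.51 to 4.76). Replicate 1 alone overlapped 39 isolated regions (12.4%), where all arm regions stood at 5.89%. Replicate 2 alone overlapped 6 (1.91%), where all arm regions stood at 0.957%.

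Both replicates gave lower shares for the isolated regions, and replicate 2 the larger gap. Replicate 1 overlapped 90.8% of isolated regions and 95.03% of the other regions. Replicate 2 overlapped 80.3% of isolated regions and 90.6% of the other regions. The difference, isolated minus other, was -4.27 percentage points in replicate 1 and -10.3 in replicate 2, a mean of -7.28 ± 4.27 (SD, n = 2). In bases the difference was smaller, and the members without support were narrow. Of the 1633664 bases in isolated regions replicate 1 covered 94.6% and replicate 2 85.8%, against 96.5% and 89.7% of the bases in the other regions.

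The share also differed between lone regions and pairs. Of the 428 regions that lay in groups of 2, both replicates overlapped 376 (87.9%, Wilson interval 84.4 to 90.6), against 78.3% (73.5 to 82.5) of isolated regions. In groups of 3 to 5, 6 to 10 and 11 or more regions the shares were 90.6%, 89.6% and 89.4%. The share without support in either replicate was 7.32% for isolated regions, 5.14% in groups of 2 and between 3.45% and 4.32% in larger groups. Median widths differed at the same place, at 4051 bases for isolated regions, 4668 in groups of 2, and 4489, 4793 and 4873 in the larger groups.

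**Figure D3:**
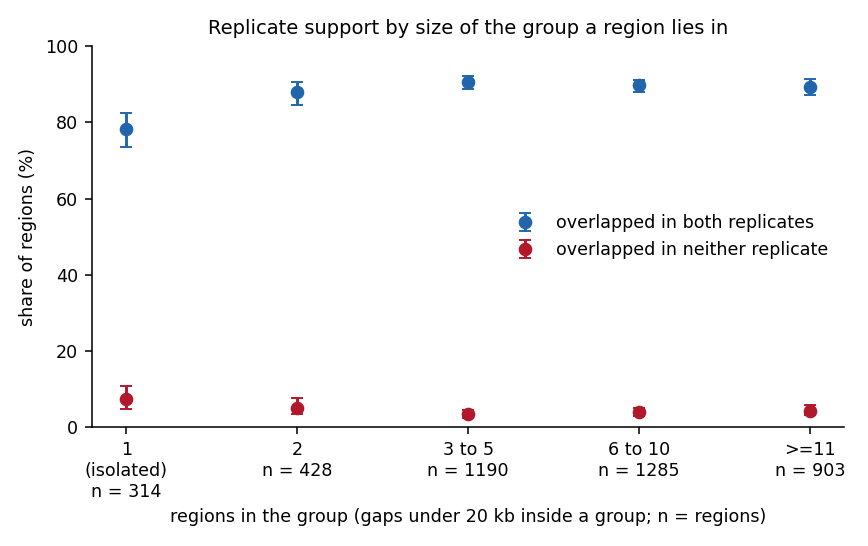
Share of series-level regions overlapped in both replicates (blue) and in neither (red), by the number of regions in the group they lie in, where regions less than 20 kb apart form a group. Bars are 95% Wilson intervals. Isolated regions, at 78.3% in both, lie below groups of 2 at 87.9% and of 3 to 5 at 90.6%.

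Support varied with width far more than with isolation. Of the members of 4000 bases or more, 162 of 162 were overlapped in both replicates, against 2350 of 2355 other regions of that width. Below 2000 bases 3 of 49 isolated regions were (6.12%, Wilson interval 2.10 to 16.5), against 38 of 337 other regions (11.3%, interval 8.33 to 15.1). From 2000 to under 3000 bases it was 39 of 58 isolated regions (67.2%, interval 54.4 to 77.9), against 458 of 542 other regions (84.5%, interval 81.2 to 87.3). From 3000 to under 4000 bases it was 42 of 45 (93.3%, interval 82.1 to 97.7), against 619 of 630 (98.3%, interval 96.9 to 99.0). The intervals parted in the class from 2000 to under 3000 bases alone. In that class isolated regions also scored lower, with a median of 0.58 against 0.70.

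Weighting the other regions to the widths of the isolated ones, in steps of 500 bases up to 6000, narrowed the difference in support. What remained lay in the share overlapped in both replicates and in replicate 2, and weighted shares have no interval of their own. The weighted share overlapped in both replicates was 82.8%, against 78.3% (interval 73.5 to 82.5) observed for isolated regions. The weighted share overlapped in neither was 7.15%, against 7.32% observed. By replicate, the weighted share was 91.3% in replicate 1, against 90.8% of isolated regions (interval 87.1 to 93.5). In replicate 2 it was 84.3%, against 80.3% of isolated regions (interval 75.5 to 84.3). The weighted shares lay within these intervals, at the upper limit in replicate 2. Score was not weighted. With scores from 0.5 to under 1, 9.68% of isolated regions (interval 4.51 to 19.5) were in neither, against 1.77% of others (0.992 to 3.14). From 1 to under 1.5 it was 3.77% against 0.352%, and from 1.5 to under 2, 0.990% against 0.0699%. It went the other way below 0.5, at 14 of 66 (21.2%) against 141 of 441 (32.0%). So it did from 2 up, at 0 of 32 (0%) against 2 of 519 (0.385%).

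**Figure D4:**
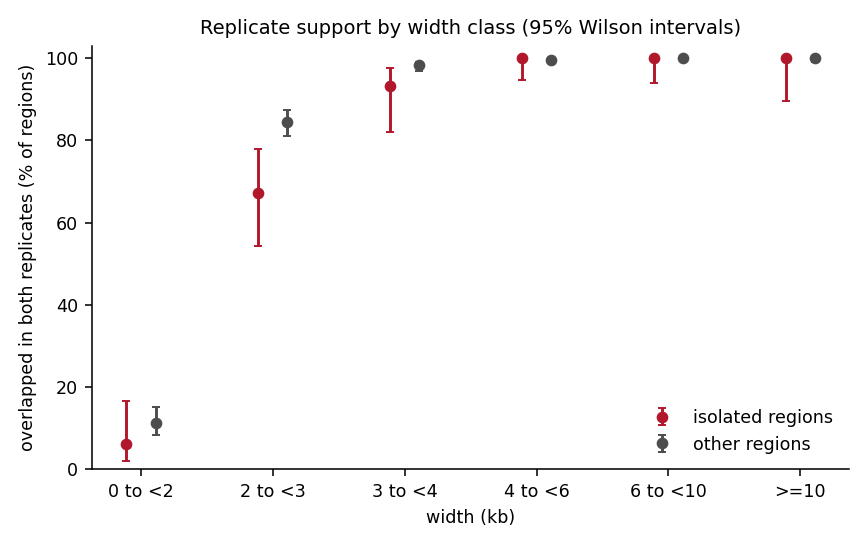
Percent of regions overlapped in both replicates by width class in kb, for isolated regions (red) and other regions (grey), with 95% Wilson intervals. Both rise from about 10% or less under 2 kb, at 6.12% and 11.3%, to over 99% from 4 kb, and the intervals are apart in the class from 2 to under 3 kb, at 67.2% and 84.5%.

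Members found in both replicates had widths and scores near those of other regions found in both. The 246 had a median width of 5005 bases and a median score of 1.55, against 5111 bases and 1.58 for the 3465 other regions. Members without full support were narrower and scored lower, and other regions without full support did so too. The 39 overlapped in replicate 1 alone had a median width of 1901 bases and a median score of 0.40, against 1933 bases and 0.42 for such other regions. The 6 overlapped in replicate 2 alone had medians of 1796 bases and 0.40, against 1731 bases and 0.39. The 23 in neither had medians of 1279 bases and 0.47, against 1325 bases and 0.38. Of the 23, 12 were narrower than 1301 bases, the width of the narrowest arm region in either replicate, against 72 of 158 other regions in neither (45.6%). That floor differs between lists, since the series-level list reaches down to 1001 bases. This smallest width was shared by 5 isolated regions (1.59%, Wilson interval 0.682 to 3.67) and 6 other regions (0.155%, interval 0.0712 to 0.338).

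**Figure D5:**
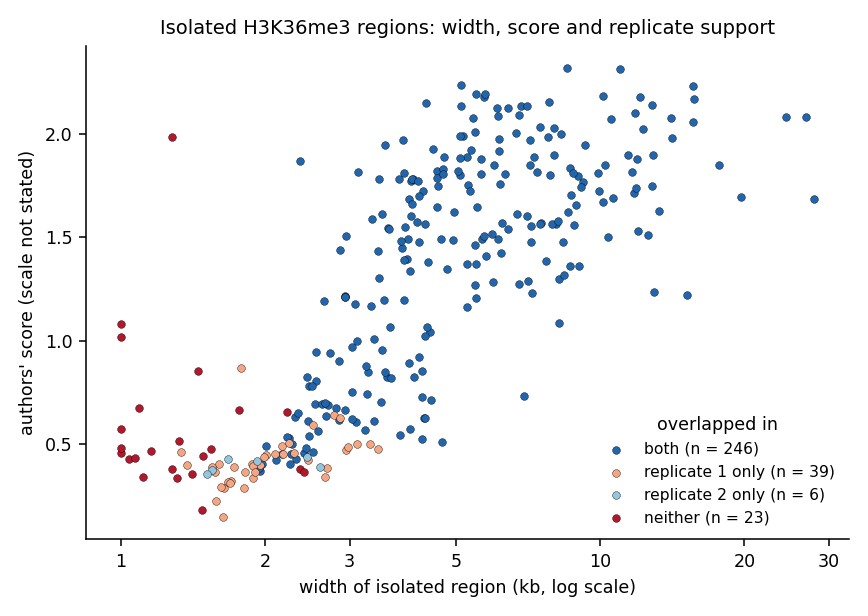
Width in kb on a log axis against the authors' score for the 314 isolated regions, coloured by replicate support. The 246 regions overlapped in both replicates have a median width of 5005 bases, and the 23 in neither gather at the narrow end with a median of 1279 bases. In score alone 1 of the 23 stands apart, at 1.98, with a width of 1279 bases.

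Members with wider gaps had less support, within overlapping intervals. With the smaller gap from 20000 to under 40000 bases, 159 of 194 members were overlapped in both replicates (82.0%, Wilson interval 75.9 to 86.7), and 71 of 100 were with a smaller gap from 40000 to under 100000 bases (71.0%, interval 61.5 to 79.0). The 20 members with both gaps of 100000 bases or more had 16 in both (80.0%, interval 58.4 to 91.9), too few for a direction. Median width was 4409, 3412 and 4109 bases and median score 1.49, 0.85 and 0.96 over these classes, in the same order. Short of the threshold, other regions with a smaller gap from 10000 to under 20000 bases were overlapped in both replicates in 297 of 346 cases (85.8%, interval 81.8 to 89.1), and had a median width of 4441 bases and a median score of 1.45. Across the threshold itself the change was thus gradual.

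A long gap on 1 side alone did not go with low support. Among regions next to at least 1 gap of 100000 bases or more, both replicates overlapped 90 of 127 isolated regions (70.9%, Wilson interval 62.4 to 78.1), against 320 of 351 other regions (91.2%, interval 87.7 to 93.7). The isolated ones had a median width of 3455 bases and a median score of 0.88, and the others, which have a neighbour within 20000 bases on the far side, had 4309 bases and 1.57. The share in neither replicate was 14.2% of the isolated regions (18 of 127, interval 9.16 to 21.3) and 3.13% of the others (11 of 351, interval 1.76 to 5.52). With a larger gap from 40000 to under 100000 bases the separation was smaller, at 81.6% of 136 isolated regions (interval 74.3 to 87.2) and 88.9% of 568 other regions (interval 86.1 to 91.2) in both replicates.

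Pooled over arms, the number of members varied little with place along the arm, while their support varied more. Each large arm was cut into 5 bins of equal length from the telomere to the centromere side, which is the high-coordinate side of 2L, 3L and X and the low-coordinate side of 2R and 3R. The bins held 67, 63, 60, 61 and 63 isolated regions, which was 7.46% to 8.15% of the regions in each. Within single arms the shares varied more. From the telomere side, the first bin of 2R had 16 of 177 regions isolated (9.04%) and the next 5 of 137 (3.65%), and on 3R these bins had 10 of 167 (5.99%) and 24 of 202 (11.9%). The highest share of any bin was 12 of 85 regions (14.1%), in the bin of 2L next to the last. In the bin next to the centromere, where sequence grades into pericentromeric heterochromatin, 41 of 63 members were overlapped in both replicates (65.1%, Wilson interval 52.8 to 75.7), against 205 of 251 in the other bins (81.7%, interval 76.4 to 86.0). The other bins were not alike, and the middle bin was also low, with 44 of 60 (73.3%) and a median score of 1.22, while the remaining ones lay between 82.0% and 85.7%. Members in the bin next to the centromere had a median width of 2813 bases and a median score of 0.70, against 4249 bases and 1.42 in the other bins together. The other regions showed a smaller step, with 84.4% (interval 81.7 to 86.8) in both replicates next to the centromere and 91.0% (interval 89.97 to 92.01) elsewhere.

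That pattern was not shared by all arms. Next to the centromere both replicates overlapped 6 of 11 members on 2L, 6 of 12 on 2R, 12 of 19 on 3L, 4 of 8 on X and 13 of 13 on 3R. Members on 3R in that bin were still narrow, with a median of 3033 bases, against 5020 bases for the other regions there. Over whole arms 3R had the highest support as well, with 68 of 78 members in both replicates (87.2%, Wilson interval 78.0 to 92.9). On 2L it was 42 of 58 (72.4%, interval 59.8 to 82.2), the lowest of the large arms, and the intervals of all 5 large arms overlapped.

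Where a member matched exactly 1 region in each replicate, the replicates agreed closely on its extent. There were 215 such members, and 3074 such other regions. The replicate 1 region was the wider one in 185 of the 215 (86.0%, Wilson interval 80.8 to 90.05), against 2685 of 3074 (87.3%, interval 86.1 to 88.5). The median excess of replicate 1 over replicate 2 was 227 bases for isolated regions and 217 bases for the others. Widths of replicates 1 and 2 had a Spearman rho of 0.98 in both groups, and scores one of 0.96 in both groups, across regions of the same pair of libraries. Edges and ranks of isolated regions matched in this way thus varied between replicates by amounts close to those of the others. Members split or without a region in a replicate are not covered.

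Replicate 2 broke up members of 4000 bases or more, and wider ones at higher shares. It split 1 of 69 members from 4000 to under 6000 bases (1.45%), against 33 of 971 other regions (3.40%). It split 13 of 60 members from 6000 to under 10000 bases (21.7%, Wilson interval 13.1 to 33.6), against 144 of 915 other regions (15.7%, interval 13.5 to 18.2). It split 16 of 33 members of 10000 bases or more into several regions (48.5%, interval 32.5 to 64.8), against 191 of 469 other regions of that width (40.7%, interval 36.4 to 45.2). Replicate 1 split 1 of the 33 (3.03%, interval 0.537 to 15.3), against 58 of 469 other regions (12.4%, interval 9.69 to 15.7). Below 4000 bases no member was split in either replicate.

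The widest members were long domains standing alone. The widest lay on 3L from 2766692 to 2794678, 27987 bases wide with a score of 1.68, between gaps of 42091 and 161413 bases. Replicate 1 held it as 1 region of 27892 bases, and replicate 2 as 2 regions of 19740 and 6140 bases. The second lay on 2L from 2133986 to 2160912 (26927 bases, score 2.08), as 1 region of 26918 bases in replicate 1 and as 2 of 13143 and 13242 bases in replicate 2, which nearly met in its middle. The third, on 3R from 17840948 to 17865412 (24465 bases, score 2.09), was 24438 bases wide in replicate 1 and 19128 and 4017 bases in replicate 2. The remaining ones of the 5 were on 3R from 25755116 to 25774820 (19705 bases) and on 3L from 19531038 to 19548694 (17657 bases). Of these 5 domains, replicate 2 split 4 and replicate 1 split 0, and replicate 2 still covered 92.5% to 98.4% of each.

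The highest-scored members were of ordinary to large width and matched well. The first was on 3R from 17397018 to 17405544 (8527 bases), with a score of 2.32 in the series-level list, 2.34 in replicate 1 and 2.34 in replicate 2. The second was on X from 20338656 to 20349654 (10999 bases), with scores of 2.32, 2.36 and 2.30 in the same lists. The others were on 3L from 7769336 to 7774452 (score 2.24), on 3L from 8553928 to 8569530 (2.23) and on 2L from 8257612 to 8263104 (2.19). The top member of 2R ran from 7341276 to 7351426 (2.18). Each of these 6 was matched by 1 isolated region in each replicate, which covered at least 94.9% of its width. None reached the top of the list, as the best of them stood at the 97.3 percentile of series-level scores.

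The most isolated members ranged from weak to strong. The most isolated lay on 3L from 24022510 to 24030918 (8409 bases, score 1.32). No series-level region lay in the 277253 bases before it or the 193435 bases after it. Replicate 1 held it as 1 region of 8311 bases and replicate 2 as 2 regions of 3354 and 4112 bases. The next was on 3L from 10452394 to 10456588 (4195 bases, score 1.47), with 4152 bases in replicate 1 and 3739 in replicate 2. The third was a short weak region on X from 13891606 to 13893574 (1969 bases, score 0.40) that both replicates nonetheless held, at 1889 and 1838 bases. The last of the 5 were on 3L from 14223132 to 14228764 (5633 bases, score 1.81) and on 3R from 2472244 to 2486388 (14145 bases, score 1.98). All 5 were overlapped in both replicates.

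Members in neither replicate were narrow, and 1 of them scored high nonetheless. The highest-scored was on 2R from 16668468 to 16669746, 1279 bases wide, with a score of 1.98, at the 85.9 percentile of the list. The next were on 2L from 22519762 to 22520762 (score 1.08) and on 2R from 806462 to 807462 (1.02), each exactly 1001 bases wide. The other 20 scored below these, and the lowest had 0.18.

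At the threshold, the members just inside it had smaller gaps of 20085, 20085 and 20183 bases. They lay on 2L from 22688866 to 22691520 (2655 bases, score 1.19), on X from 17464576 to 17470686 (6111 bases, 2.09) and on 2R from 7218896 to 7223564 (4669 bases, 0.51). The regions just outside had smaller gaps of 19991, 19991 and 19899 bases. They lay on 2R from 5574522 to 5579962 (5441 bases, score 1.98) and, as its neighbour across the same gap, from 5599954 to 5604840 (4887 bases, 1.17), and on 3R from 9906172 to 9909612 (3441 bases, 0.99). All 6 were overlapped in both replicates.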

How the data were processed

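Reads were aligned with Bowtie 0.12.7, per the submitters' processing notes, and regions refer to FlyBase release 5, per the file headers. No source used here names the region caller, its threshold or how the replicates were combined into the series-level list. The deposited files hold a start, an end and a score per region. The score is the authors' own and its scale is not stated, so it served for description and ranks inside each list. Files hold no read counts, so depth is unknown. Input libraries were not analysed here on their own.

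Gaps are bases between neighbouring regions. A region counted as overlapped when at least 1 base lay in a replicate region. Shares have 95% Wilson intervals. Named regions were the 5 widest, 5 highest-scored, 5 with the largest smaller gap, the highest-scored per arm, the 3 highest-scored in neither replicate and 3 on each side of the threshold. The rule, the members and the lists were chosen with earlier results of these data known. The alternatives were gaps of 10000 and 40000 bases, merging within 1000 bases, the higher-scored 50% of regions, leaving out chromosome 4 and X, leaving out a replicate, and overlaps of 50% of both lengths. Gap and overlap code was tested on simulated data. Python 3.11.15, numpy 2.4.6, pandas 2.3.3, scipy 1.17.1 and matplotlib 3.10.9 were used.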

Additional observations from a re-analysis of the deposited data

How the results depend on the processing

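Of 58 alternative settings over 10 results, 38 left the value within its error or, for counts, within 1.5 times, and 20 moved it. Where a result was a mean over both replicates, leaving a replicate out was bound to stay within the SD. The share with empty surroundings was 100% in each replicate. It was bound to stay so without a replicate or without chromosome 4 and X. All these settings are among the 38 and say nothing about robustness. A gap of 10000 bases gave 660 isolated regions with a median width of 4186 bases, and 15.3% of a replicate's regions were isolated. A gap of 40000 bases gave 120 with a median width of 3450 bases, 72.5% in both replicates, 10.8% in neither, and 2.50% of a replicate's regions isolated. Merging within 1000 bases gave median widths of 4701 bases for isolated and 5602 for other regions. With the higher-scored 50% of regions, isolated regions numbered 459, with a median width of 6323 bases against 6772 for others. Of these, 99.3% were in both replicates, against 99.9% of others, 0.654% were in neither, and 30.3% had empty surroundings in both replicates, since dropping regions from the list leaves the replicate lists as they were. With an overlap of 50% of both lengths, 86.4% of other regions were in both, against 89.7%. The isolated share in both stayed below that of other regions, and the isolated median width below theirs, in each setting run for them.

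Leaving out either replicate, the share found in the remaining one ranged from 80.3 to 90.8% for isolated and from 90.6 to 95.03% for other regions, and the isolated share not found from 9.24 to 19.7%. Lists without read counts cannot tell weak enrichment from none. No paired analysis was possible because the groups that share replicate numbers are ChIP and input, and no input value was analysed. Isolated and other regions were compared within each replicate.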
